A study of Mus musculus with 27 samples.

Results

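The genes described here are 34 enzymes, carriers and regulators that bring pyruvate and branched-chain keto acids into the mitochondrial citric acid cycle and run the cycle itself. They were taken as a list by function and found by matching the Ensembl identifiers of the deposited gene counts to mouse symbols. All 34 were found among 55487 genes, and all 34 had enough counts to be tested in every comparison. By role they comprised 13 citric acid cycle enzymes, 4 enzymes of the malate-aspartate shuttle and of oxaloacetate refilling, 2 subunits of the pyruvate carrier, 4 subunits of the pyruvate dehydrogenase complex, 3 subunits of the branched-chain keto acid dehydrogenase complex, 5 kinases and 3 phosphatase subunits. The kinases and phosphatases were kept apart from the 26 enzyme and carrier genes.

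RNA from mouse ventricle was sequenced in 27 libraries that differ by their labels in age or in MBNL1 gain or loss of function. MBNL1 is a protein that binds RNA and controls splicing and transcript stability. Controls (Ctl) were taken at postnatal day 1 (P1, n = 4), day 7 (P7, n = 3) and day 60 (P60). Gain-of-function hearts (Tg) were taken at P7 (n = 4). Loss-of-function hearts (KO) were taken at P60, 7 d (n = 5) or 14 d (n = 4) after the knockout, with P60 controls for each time (n = 4 at 7 d, n = 3 at 14 d). The sources used here do not give what drives the transgene, which part of Mbnl1 is deleted, how the knockout was induced, the strain or the sex. Nor do they tie each library to an animal of its own, and the tests rest on the spread among these libraries, which may in part be technical.

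Pyruvate enters mitochondria through the Mpc1-Mpc2 carrier and is turned into acetyl-CoA by the pyruvate dehydrogenase complex. Pyruvate dehydrogenase kinases (Pdk1 to Pdk4) switch that complex off by phosphorylation, and the phosphatases Pdp1 and Pdp2, with the regulatory subunit Pdpr, switch it on again. The branched-chain complex is built alike, is inhibited by Bckdk, and shares its Dld subunit with the pyruvate and 2-oxoglutarate dehydrogenases. The adult heart draws most of its energy from fatty acids, and the kinases hold back glucose oxidation when fat is plentiful. Mitochondrial capacity grows as the ventricle matures after birth.

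Levels are given in CPM, a gene's read count divided by its library's size in megareads, after scaling all libraries together with edgeR's TMM method, and a gene was called where edgeR's quasi-likelihood test gave an adjusted p under 0.05 over all genes tested. Total counts were 21929347 to 25675115 per library. Mbnl1 itself stood at 4082, 2936, 3435 and 3508 CPM in the 4 Tg libraries against 105, 97.0 and 97.8 in the P7 controls. In the libraries labelled KO it did not fall clearly at 7 d, where it was 219, 103, 168, 115 and 168 CPM against 153, 146, 149.5 and 147 in the controls. At 14 d it was 137, 135, 115 and 121 against 170.2, 159 and 151, with every library labelled KO below every control. At 7 d, libraries 1, 3 and 5 labelled KO lay above every control. A count over the whole gene does not show whether an inner part was deleted, so it does not check the KO labels. In the P1 controls Mbnl1 was 75.3, 63.4, 82.1 and 71.2 CPM.

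Another gene followed the KO labels. Esr1, the oestrogen receptor, whose ligand-binding part is used in inducible Cre proteins, ran from 196 to 1956 CPM in the 9 libraries labelled KO and from 0.487 to 1.499 CPM in the 7 P60 controls. Whatever raised Esr1 and the loss of MBNL1 cannot be told apart in these groups. Within the 7 d KO group Esr1 was 234, 1894, 651, 1654 and 196 CPM in libraries 1 to 5, so libraries 1 and 5 stood apart. The members' share of all counts was 0.946% and 0.911% in those 2 libraries, 1.18% to 1.30% in the other 3, and 1.84% to 2.01% in the controls. Mitochondrially encoded genes took 14.7% to 18.3% of counts at 7 d and 17.4% to 21.6% at 14 d in the libraries labelled KO, against 26.04% to 29.6% in the P60 controls. Their share was 16.1% to 16.9% in Tg, 15.3% to 15.9% in P7 and 10.3% to 13.0% in P1 libraries. The part of these differences in the results below was not tested.

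Between P7 and P60 the module rose almost as a whole. Of the 34 members 32 were higher at P60 (background, 33.3% of 16388 genes tested) and 1 was lower (background, 36.0%), with a median log2 fold change of 1.03 against -0.05 over all genes. All 26 enzyme and carrier genes rose, by 0.57 to 3.12 on the log2 scale with TMM. By total count scaling 4 of these calls were lost: Idh3a was at 0.10 (adjusted p = 0.102), Pdhb at 0.044 (adjusted p = 0.501), and Fh1 and Mdh2 turned slightly negative. Pyruvate carboxylase (Pcx), the branched-chain subunits Bckdha and Bckdhb, and the phosphatase Pdp2 had the largest rises, and Pdk3 was the member that fell. For 31 members every P60 control lay above every P7 control (background, 30.9% of genes tested). Pdk4 and Pdp1 overlapped.

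**Figure D1:**
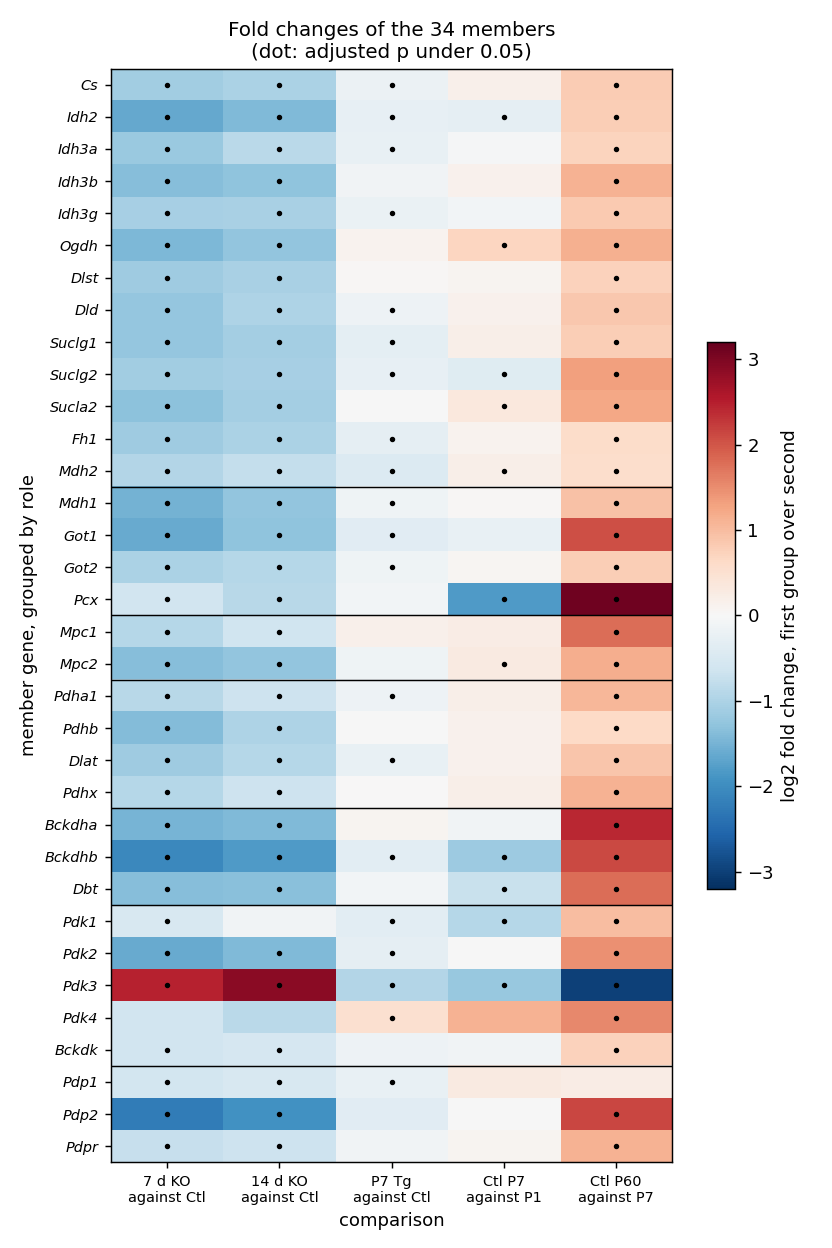
Log2 fold change of each of the 34 members (rows, grouped by role) in 5 comparisons (columns), with red for higher and blue for lower in the first group and a dot where the adjusted p was under 0.05. The 2 KO columns are blue for all 26 enzyme and carrier genes and the P60 against P7 column is red for them (by total count scaling Fh1 and Mdh2 turn to -0.011 and -0.034, and Idh3a and Pdhb are no longer called), while Pdk3 has the opposite colour in those columns.

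In the cycle itself, citrate synthase (Cs), which joins acetyl-CoA to oxaloacetate, was at 1469, 1316 and 1463 CPM at P7 and at 2698, 2372, 2341 and 2554 CPM in the 7 d and 2501, 2672 and 2222 CPM in the 14 d P60 controls. All 7 adult libraries exceeded the P7 range, a log2 fold change of 0.80 ± 0.08 (SE, adjusted p = 3.17e-07). Ogdh, the first subunit of 2-oxoglutarate dehydrogenase, had 1289, 1217, 984 and 1113 CPM at P1, 1943, 1774 and 1872 CPM at P7 and 3683 to 4495 CPM in the 7 P60 controls. It rose at both steps, by 0.70 ± 0.08 (SE, adjusted p = 3.51e-05) from P1 to P7 and by 1.13 ± 0.08 (SE, adjusted p = 1.30e-08) from P7 to P60. The ATP-forming succinyl-CoA ligase subunit Sucla2 rose at both steps too, by 0.33 ± 0.09 (SE, adjusted p = 0.0152) and 1.23 ± 0.09 (SE, adjusted p = 1.15e-08). Its GTP-forming counterpart Suclg2 fell first, -0.40 ± 0.07 (SE, adjusted p = 0.00108), and then rose, 1.31 ± 0.07 (SE, adjusted p = 6.21e-10).

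The remaining cycle enzymes rose between P7 and P60 by 0.57 to 1.11 on the log2 scale. The NAD-dependent isocitrate dehydrogenase subunits Idh3a, Idh3b and Idh3g changed by 0.71 (SE 0.06), 1.11 (SE 0.07) and 0.83 (SE 0.08). NADP-dependent Idh2, which also feeds antioxidant defence, changed by 0.80 (SE 0.07), after -0.28 ± 0.07 (SE, adjusted p = 0.0128) from P1 to P7. Dlst and Dld, the other subunits of the 2-oxoglutarate complex, changed by 0.75 (SE 0.07) and 0.87 (SE 0.08), and Suclg1, the shared ligase subunit, by 0.79 (SE 0.07). Fumarase (Fh1) and mitochondrial malate dehydrogenase (Mdh2) had the smallest rises, 0.59 (SE 0.06) and 0.57 (SE 0.06), and these turned to -0.011 and -0.034 when libraries were scaled by total count. Adjusted p-values for these 9 genes were at most 1.12e-06.

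The way libraries are scaled moved the level of every gene in this comparison. By total count the median of all genes moved from -0.05 to -0.65, and the members' median from 1.03 to 0.42, so that the members stood 1.08 above all genes on the first scale and 1.07 on the second. By total count 26 members were called higher (background, 14.4%) and 2 lower (background, 65.4%), and of all calls 18.0% were higher against 48.1% with TMM. In the KO comparisons total count moved the all-gene median up to 0.45 at 7 d and 0.39 at 14 d, from 0.03 and 0.01. The members' median was then 1.16 and 1.02 log2 units below that of all genes, and 1.16 and 1.03 below with TMM. Scaling shifts all genes of a comparison by nearly the same amount. The distance between members and all genes could therefore hardly differ between the scales, and its likeness is no check of the result.

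The genes around the cycle varied more among themselves. Pyruvate carboxylase (Pcx), which makes oxaloacetate from pyruvate, was at 31.2, 31.9, 19.2 and 17.9 CPM at P1, 7.19, 6.92 and 7.16 CPM at P7 and 53.1 to 68.1 CPM in the P60 controls. It fell by 3.52 times from P1 to P7, -1.81 ± 0.18 (SE, adjusted p = 8.96e-06), and rose by 8.68 times from P7 to P60, 3.12 ± 0.18 (SE, adjusted p = 1.92e-09), so its lowest level was at P7. Cytosolic aspartate aminotransferase Got1 rose from 265 to 312 CPM to 1042 to 1317 CPM, 2.05 ± 0.11 (SE, adjusted p = 5.52e-10). Its mitochondrial partner Got2, 0.80 ± 0.06 (SE, adjusted p = 4.91e-08), and cytosolic malate dehydrogenase Mdh1, 0.93 ± 0.07 (SE, adjusted p = 1.72e-08), rose less. The carrier subunits Mpc1 and Mpc2 rose by 1.79 (SE 0.09) and 1.17 (SE 0.09), and Mpc2 had 0.28 ± 0.09 (SE, adjusted p = 0.0369) from P1 to P7, a call lost in 8 of the alternative settings tried.

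All 4 pyruvate dehydrogenase subunits rose, Pdhb least, and by total count scaling Pdhb was no longer called. Pdha1 and Pdhb, which form the decarboxylating E1 part, changed by 1.07 (SE 0.06) and 0.65 (SE 0.07), and the acetyl-transferring E2 subunit Dlat and its binding protein Pdhx by 0.90 (SE 0.06) and 1.12 (SE 0.10). None of the 4 was called between P1 and P7, where their log2 values were 0.13 to 0.18. The branched-chain subunits behaved otherwise. Bckdhb, the beta subunit of the branched-chain decarboxylase, stood at 40.9, 40.3, 37.6 and 28.2 CPM at P1, 16.0, 14.9 and 18.2 CPM at P7 and 57.3 to 80.2 CPM at P60, with changes of -1.16 ± 0.13 (SE, adjusted p = 2.28e-05) and 2.10 ± 0.13 (SE, adjusted p = 2.93e-09). Dbt, the transferase core, took the same course, -0.72 ± 0.09 (SE, adjusted p = 7.70e-05) and 1.79 ± 0.09 (SE, adjusted p = 4.84e-10). Bckdha, the alpha subunit, stood at 21.8, 20.7, 33.6 and 30.04 CPM at P1 and 26.1, 25.5 and 22.5 CPM at P7, which overlapped, and rose to 113 to 167 CPM, 2.42 ± 0.17 (SE, adjusted p = 1.43e-08).

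During the first week the module did not move as a block. There were 7 members lower (background, 11.2%) and 4 higher (background, 12.3% of 16388 genes), and the median log2 fold change was 0.09. The members lower at P7 were Pcx, Bckdhb, Dbt, Suclg2, Idh2, Pdk1 and Pdk3. The higher ones were Ogdh, Sucla2, Mpc2 and Mdh2, the last by 0.20 ± 0.07 (SE, adjusted p = 0.0448), a call that was lost in 10 of the alternative settings tried. The calls of Idh2 and Sucla2 were lost in 3 and 2 settings, all of which kept their direction. The P1 libraries were themselves uneven, since libraries 3 and 4 held less Pcx and more Bckdha than libraries 1 and 2. Cell type markers also differed between P1 and P7. Of 10 fibroblast markers 7 were higher and 1 lower at P7, with summed levels of 6427 to 7499 CPM against 3110 to 4776, and 7 of 10 endothelial markers were higher, with 1559 to 1596 CPM against 1136 to 1320. Of 10 ventricular cardiomyocyte markers 3 were higher and 2 lower, and their summed level was 38800 to 41740 against 31090 to 36250 CPM. These 3 sums did not overlap between the ages, and their part in the members' values was not tested.

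At 7 d after the knockout the module was lower almost throughout in the libraries labelled KO. Of the 34 members 32 were called lower (background, 24.3% of 15167 genes) and 1, Pdk3, higher (background, 26.4%). The median log2 fold change was -1.13 against 0.03 over all genes, and for the 26 enzyme and carrier genes, all of them lower, it was -1.21. At 14 d 31 members were lower (background, 22.4% of 14976 genes) and Pdk3 was again the 1 member higher (background, 21.8%), with a median of -1.01 and all 26 enzyme and carrier genes lower. The 2 times share no library, and 31 members were called lower at both (background, 18.3% of 14734 genes tested at both). In bulk ventricle, fewer cardiomyocytes and less RNA per cardiomyocyte cannot be told apart.

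Cs was at 984, 1344, 1167, 1309 and 1022 CPM in the 7 d KO libraries 1 to 5 and 2698, 2372, 2341 and 2554 CPM in their controls. At 14 d it was at 1080, 1194, 1317 and 1288 against 2501, 2672 and 2222 CPM. The groups did not overlap at either time, and the changes were -1.10 ± 0.12 (SE, adjusted p = 5.46e-05) and -1.02 ± 0.10 (SE, adjusted p = 2.57e-05). Idh2 fell more, from 2237, 2055, 1833 and 1836 to 769, 655, 621, 589 and 606 CPM at 7 d and from 2327, 2274 and 2201 to 904, 852, 866 and 823 CPM at 14 d. Its changes were -1.63 ± 0.12 (SE, adjusted p = 5.92e-06) and -1.41 ± 0.08 (SE, adjusted p = 7.89e-07), which at 7 d was the lowest value among the cycle enzymes.

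Several cycle enzymes split the 7 d KO group. Ogdh was at 1135, 2068, 1520, 1991 and 1128 CPM in libraries 1 to 5 against 4495, 4124, 3986 and 4281 CPM in the controls, with libraries 1 and 5 lowest, and changed by -1.44 ± 0.20 (SE, adjusted p = 1.87e-04). Idh3a was at 195, 360.1, 415, 373 and 173 CPM, again lowest in libraries 1 and 5, against 733, 660.2, 638 and 709 CPM. Its partner Idh3b had 298, 318, 297, 298 and 298 CPM, nearly equal in all 5, against 864, 755, 714 and 779 CPM. Idh3a, Idh3b and Idh3g changed by -1.19 (SE 0.25), -1.38 (SE 0.09) and -1.05 (SE 0.09), with adjusted p-values of 0.00251, 3.64e-06 and 1.30e-05. At 14 d they changed by -0.87 (SE 0.08), -1.28 (SE 0.08) and -1.04 (SE 0.08). Without the 7 d KO libraries 1 and 5, a choice made after seeing the data, 32 members were called lower (background, 25.4%) and 1 higher (background, 27.3%).

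**Figure D2:**
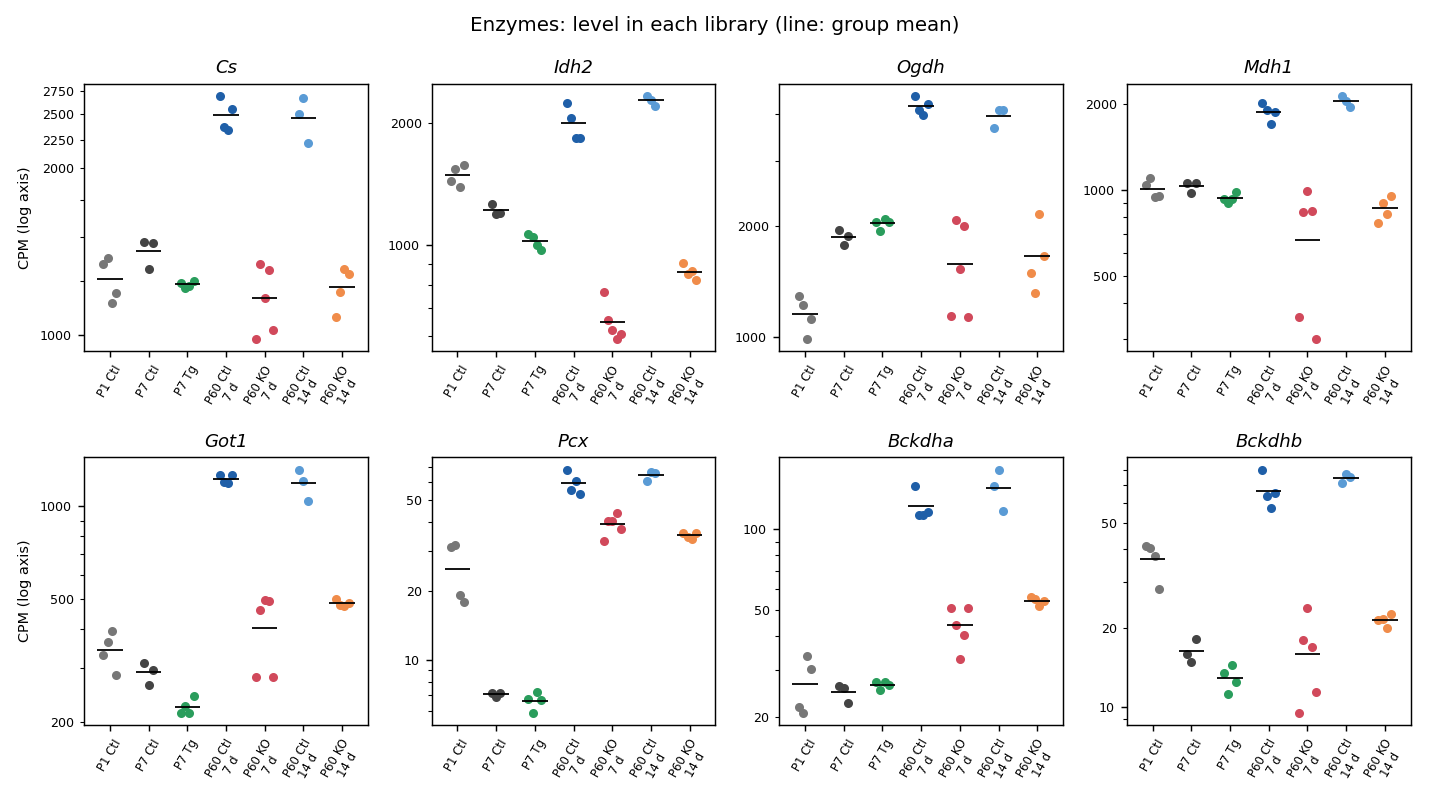
Level in CPM (log axis) of 8 enzyme genes in each library (points, 7 groups, replicate order from left to right) with the group mean (line). The P60 controls are highest for all 8 genes, and libraries 1 and 5 lie lowest of the 7 d KO group for Cs, Ogdh, Mdh1, Got1, Pcx and Bckdhb.

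The other cycle enzymes fell by similar amounts. Dlst, Dld, Suclg1, Suclg2, Sucla2 and Fh1 changed by -1.13, -1.24, -1.23, -1.11, -1.32 and -1.14 at 7 d, and by -1.05, -0.98, -1.08, -1.06, -1.10 and -1.003 at 14 d. Ogdh changed by -1.27 ± 0.15 (SE, adjusted p = 8.22e-05) at 14 d. Mdh2, with -0.93 and -0.75, fell least of the 13. Standard errors of these values were 0.08 to 0.16, except 0.20 for Ogdh at 7 d.

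Of the shuttle genes, Mdh1 was at 358, 838, 992, 844 and 299 CPM in the 7 d KO libraries and 2024, 1914, 1704 and 1869 CPM in the controls, so that libraries 1 and 5 had well under the level of the other 3. Its change was -1.503 ± 0.33 (SE, adjusted p = 0.00319) at 7 d and -1.26 ± 0.09 (SE, adjusted p = 4.65e-06) at 14 d, where the 4 KO libraries were closer together at 768, 902, 819.5 and 950.5 CPM. Got1 was at 281, 463, 498, 495 and 281 CPM against 1261, 1199, 1193 and 1263 CPM at 7 d, and changed by -1.61 ± 0.19 (SE, adjusted p = 8.24e-05) and -1.30 ± 0.09 (SE, adjusted p = 3.03e-06). Got2 changed by -1.02 ± 0.10 (SE, adjusted p = 3.57e-05) and -0.92 ± 0.10 (SE, adjusted p = 4.23e-05). Pcx fell least among the 26 at 7 d, from 68.1, 55.3, 60.9 and 53.1 to 33.1, 40.7, 40.4, 44.1 and 37.4 CPM, -0.61 ± 0.11 (SE, adjusted p = 8.55e-04), and scaled by total count it was no longer called (adjusted p = 0.166). At 14 d it changed by -0.88 ± 0.08 (SE, adjusted p = 1.35e-05).

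The 2 carrier subunits fell unequally. Mpc1 went from 221, 181, 169 and 198 to 88.4, 110.4, 112, 106 and 99.1 CPM and Mpc2 from 319.5, 284, 244 and 276 to 88.3, 131, 122, 119 and 89.3 CPM at 7 d. The changes were -0.91 ± 0.11 (SE, adjusted p = 7.69e-05) for Mpc1 and -1.36 ± 0.14 (SE, adjusted p = 3.64e-05) for Mpc2, and at 14 d -0.65 ± 0.08 (SE, adjusted p = 1.41e-04) and -1.25 ± 0.10 (SE, adjusted p = 7.93e-06). Among the pyruvate dehydrogenase subunits Pdhb fell most at 7 d, -1.39 ± 0.14 (SE, adjusted p = 3.60e-05), with Dlat at -1.13 (SE 0.16), Pdhx at -0.91 (SE 0.09) and Pdha1 at -0.88 (SE 0.12). At 14 d Pdhb, Dlat, Pdhx and Pdha1 changed by -0.98 (SE 0.07), -0.91 (SE 0.08), -0.66 (SE 0.11) and -0.65 (SE 0.12). Adjusted p-values of the 4 were at most 0.00129 at either time. Pdha1 shares up to 425 bases of exon with Map3k15 on the other strand, and the strand setting of the counting is not given in the sources used here, although Map3k15 had 1304 counts in all against 315614 for Pdha1.

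Bckdhb, a subunit of the branched-chain complex, had the deepest loss among the enzyme and carrier genes at both times. The other subunits, Bckdha and Dbt, did not stand apart in this way. At 7 d Idh2, Got1 and Mdh1 fell more than either. Bckdhb was at 9.54, 18.0, 23.9, 17.0 and 11.4 CPM in the 7 d KO libraries and 80.2, 63.5, 57.3 and 65.0 CPM in the controls, -2.06 ± 0.24 (SE, adjusted p = 6.64e-05), or 4.19-fold lower. At 14 d it was at 21.5, 21.6, 19.96 and 22.6 against 71.0, 77.4 and 75.2 CPM, -1.81 ± 0.08 (SE, adjusted p = 3.72e-07). Libraries 1 and 5 were again lowest at 7 d, and no KO library reached a control. Bckdha fell from 146, 113, 114 and 116 to 51.0, 44.0, 32.8, 40.4 and 50.7 CPM at 7 d, -1.49 ± 0.14 (SE, adjusted p = 2.20e-05), where libraries 1 and 5 were among the highest of the KO libraries, and changed by -1.41 ± 0.11 (SE, adjusted p = 7.61e-06) at 14 d. Dbt changed by -1.37 ± 0.10 (SE, adjusted p = 6.16e-06) and -1.33 ± 0.10 (SE, adjusted p = 3.74e-06). Bckdha shares up to 488 bases of exon with B3gnt8 on the other strand (5017 counts against 34450), so reads from the shared stretch cannot be told apart without strand.

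Against the neonatal controls, the mean level in the libraries labelled KO was below that at P7 for 21 of 34 members at 7 d and 19 at 14 d, and below that at P1 for 22 and 15. These are counts of means, without a test. Cs, for example, averaged 1165 ± 163 (SD, n = 5) at 7 d, 1220 ± 107 (SD, n = 4) at 14 d, 1416 ± 86.5 (SD, n = 3) at P7 and 1263 ± 113 (SD, n = 4) at P1, so that the KO and neonatal groups lay close together. Pcx and Mpc1 did not follow Cs, since Pcx averaged 39.1 ± 4.10 at 7 d against 7.09 ± 0.151 at P7, and Mpc1 103 ± 9.56 against 57.0 ± 5.77 CPM.

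Cell type markers moved along with the module. Of all genes tested, 24.3% were lower and 26.4% higher at 7 d, and 22.4% and 21.8% at 14 d. Of 10 ventricular cardiomyocyte markers 8 were lower at 7 d and at 14 d, with medians of -1.13 and -0.68, and their summed level was 19140 to 36400 CPM at 7 d and 36420 to 42760 at 14 d in the libraries labelled KO, against 59790 to 69960 in the P60 controls. All 10 macrophage markers were higher at 7 d and 9 at 14 d, with summed levels of 1287 to 1813 and 808 to 1174 CPM against 404 to 636 CPM. Of 10 fibroblast markers 6 were higher and 1 lower at 7 d, and 8 were higher and 1 lower at 14 d. Endothelial markers were lower for 5 of 10 at 7 d and 4 at 14 d. None of the cardiomyocyte markers was at 0 in all libraries of a group. The part of cell makeup in the members' fall was not tested.

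In shorter marker lists some genes were called as well, and the shares of all genes just given apply to them too. In the libraries labelled KO, smooth muscle and pericyte markers were 4 lower and 2 higher of 8 at 7 d and 2 and 2 at 14 d, red blood cell markers 6 and 1 lower of 6, and atrial markers 1 lower and 1 higher of 5 and then 2 higher. The summed atrial level was 304 to 2574 CPM at 7 d against 113 to 256 in the controls, and 3391 to 4245 against 160.4 to 233 at 14 d, with no overlap at either time. Most of that came with Nppa, the atrial natriuretic peptide, 4.16 ± 0.66 (SE, adjusted p = 4.85e-04) and 5.23 ± 0.12 (SE, adjusted p = 7.87e-09). Of 8 T and B cell markers 3 could be tested, and 2 and 1 were higher. No adipocyte marker was called among the 3 and 4 tested of 5. Between P7 and P60 all 10 cardiomyocyte and all 10 macrophage markers rose (background, 33.3%), while 7 of 10 fibroblast and 7 of 10 endothelial markers fell (background, 36.0%).

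The 4 pyruvate dehydrogenase kinases are isoenzymes with the same substrate. To show the starts of the 4 genes side by side, the RefSeq promoter windows (250 bases before to 50 after the start of the first listed transcript, 5′ to 3′ on the gene's strand, GRCm38.p6) are given with each CG pair in capitals.
Pdk1 (chr2:71872974-71873273, + strand): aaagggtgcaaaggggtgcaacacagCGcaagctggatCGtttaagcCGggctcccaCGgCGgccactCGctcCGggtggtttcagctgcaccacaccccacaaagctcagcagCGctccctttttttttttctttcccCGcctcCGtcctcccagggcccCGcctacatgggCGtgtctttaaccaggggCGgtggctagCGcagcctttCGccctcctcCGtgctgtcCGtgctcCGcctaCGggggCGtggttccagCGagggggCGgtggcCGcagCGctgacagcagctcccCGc
Pdk2 (chr11:95041322-95041621, - strand): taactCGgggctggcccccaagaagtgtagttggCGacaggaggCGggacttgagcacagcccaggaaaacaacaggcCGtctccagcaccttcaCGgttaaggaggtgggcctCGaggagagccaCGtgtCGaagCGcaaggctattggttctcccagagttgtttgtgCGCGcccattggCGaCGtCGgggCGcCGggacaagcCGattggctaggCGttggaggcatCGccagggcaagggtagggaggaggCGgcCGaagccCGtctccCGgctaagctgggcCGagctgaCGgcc
Pdk3 (chrX:93832101-93832400, - strand): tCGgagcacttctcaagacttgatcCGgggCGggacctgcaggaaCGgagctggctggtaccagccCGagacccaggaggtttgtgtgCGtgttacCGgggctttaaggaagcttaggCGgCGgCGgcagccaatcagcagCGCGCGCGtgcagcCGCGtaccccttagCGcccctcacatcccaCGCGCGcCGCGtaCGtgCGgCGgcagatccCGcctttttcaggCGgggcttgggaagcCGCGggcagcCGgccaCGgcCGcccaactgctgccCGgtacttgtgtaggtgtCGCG
Pdk4 (chr6:5496229-5496528, - strand): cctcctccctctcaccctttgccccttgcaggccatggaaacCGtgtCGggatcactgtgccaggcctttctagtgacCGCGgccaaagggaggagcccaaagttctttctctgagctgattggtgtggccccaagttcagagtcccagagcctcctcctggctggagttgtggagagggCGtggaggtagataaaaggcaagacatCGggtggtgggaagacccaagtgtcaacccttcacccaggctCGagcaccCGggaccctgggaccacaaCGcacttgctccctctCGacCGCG
Pdk3 had the most CG pairs, 35, which exceeds 93.0% of the 32851 promoter windows. Pdk1 and Pdk2 had 25 each, and Pdk4 had 12, against a median of 7 over all windows. Of the 34 members 31 had a promoter entry, and Idh3a, Dbt and Pdp1 had none. On either strand the estrogen-related receptor element TCAAGGTCA was in the windows of 0 of the 31 members (0.466% of 27025 genes), and the shorter AAGGTCA, which is part of it, was in those of Ogdh and Got1 (6.45% of members, 5.38% of genes). The NRF1 core GCGCATGC was found for Ogdh (3.05% of genes have it) and the ETS core CCGGAAGT for Dlst (4.31% of genes).

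Pdk3 ran against the rest of the module in the maturation and KO comparisons. It was at 58.0, 64.6, 49.5 and 55.0 CPM at P1, 28.2, 21.8 and 23.6 CPM at P7 and 2.32 to 4.54 CPM in the 7 P60 controls. In the libraries labelled KO it was at 11.9, 18.4, 18.9, 20.7 and 10.4 CPM at 7 d and 19.1, 23.5, 27.3 and 27.1 CPM at 14 d, so every KO library exceeded every P60 control and the 14 d group overlapped the P7 range. It fell from P1 to P7, -1.21 ± 0.15 (SE, adjusted p = 5.02e-05), and from P7 to P60, -2.99 ± 0.14 (SE, adjusted p = 2.39e-10), and it was 5.48-fold higher at 7 d, 2.45 ± 0.23 (SE, adjusted p = 2.01e-05), and 7.39-fold higher at 14 d, 2.88 ± 0.23 (SE, adjusted p = 6.51e-06). Pdk3 lies on the X chromosome, and by their Xist and Y-linked counts every group held libraries of both sexes, in unequal mixes. Females and males numbered 3 and 1 at P1 and 1 and 2 in the P7 controls. They numbered 2 and 2 in the 7 d controls, 3 and 2 in the 7 d KO group, 1 and 2 in the 14 d controls and 2 and 2 in the 14 d KO group.

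**Figure D3:**
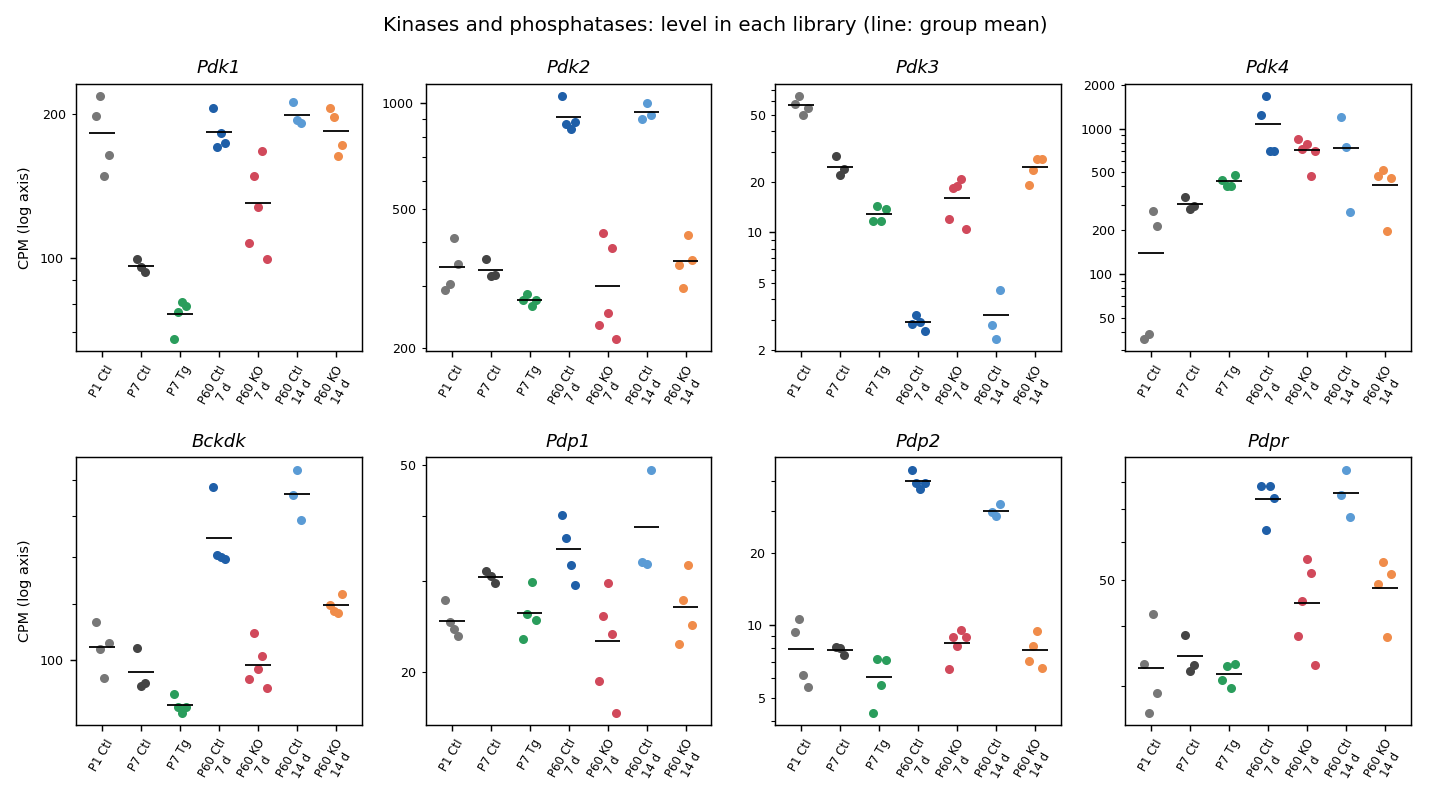
Level in CPM (log axis) of the 5 kinases and 3 phosphatase subunits in each library (points, 7 groups, replicate order from left to right) with the group mean (line). Pdk3 is lowest in the P60 controls and higher in every library labelled KO, while Pdk2 and Pdp2 are highest in the P60 controls.

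Pdk2, the most widely expressed of the kinases, took the opposite course. It was at 292, 305, 413 and 348 CPM at P1, 359, 320.1 and 323 CPM at P7 and 842 to 1048 CPM at P60, a rise of 1.47 ± 0.11 (SE, adjusted p = 2.93e-08) from P7. In the KO libraries it was at 232, 425, 252, 385 and 212 CPM at 7 d and 345, 296, 420.0 and 356 CPM at 14 d. No KO library reached a P60 control, and the changes were -1.60 ± 0.21 (SE, adjusted p = 1.45e-04) and -1.42 ± 0.11 (SE, adjusted p = 7.61e-06). Between P1 and P7 the value was -0.024 ± 0.11 (SE, adjusted p = 0.907), and its sign turned when some single libraries were left out.

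Pdk1, the isoform that responds to low oxygen, had its lowest level at P7. It was at 198, 219, 148 and 164 CPM at P1, 99.4, 95.9 and 93.5 CPM at P7 and 171 to 213 CPM at P60, with changes of -0.92 ± 0.11 (SE, adjusted p = 3.36e-05) and 0.99 ± 0.10 (SE, adjusted p = 5.45e-07). At 7 d the KO libraries had 108, 149, 128, 167 and 99.6 CPM against 206, 171, 183 and 175 CPM, -0.50 ± 0.15 (SE, adjusted p = 0.0178). That call was lost when libraries were scaled by total count, -0.074 with an adjusted p of 0.688, and without control library 1, with an adjusted p of 0.0626. At 14 d the KO libraries had 206, 197, 164 and 172 CPM against 213, 195 and 192 CPM, which overlapped, -0.12 ± 0.10 (SE, adjusted p = 0.349), and by total count the sign turned to 0.25 with an adjusted p of 0.0361.

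Pdk4, the isoform induced by fasting and fatty acids, spread widely among the P60 controls, the 14 d KO libraries and the P1 libraries. At P7 its spread was small. The P60 controls had 1237, 1679, 701 and 696 CPM at 7 d and 1201, 745 and 268 CPM at 14 d, and the KO libraries 853, 719, 786, 474 and 701 and 469, 518, 196 and 457 CPM. The groups overlapped at both times, and neither -0.62 ± 0.27 (SE, adjusted p = 0.0789) at 7 d nor -0.85 ± 0.43 (SE, adjusted p = 0.136) at 14 d was called. The 14 d value was called without the low-count filter (-0.83, adjusted p = 0.00815) and without control library 7, which had the lowest control level (-1.25, adjusted p = 0.0136), and the 7 d value without control library 3 or 4. At P1 Pdk4 split the libraries into 35.6, 38.5, 272 and 214 CPM, and at P7 it was at 339, 278 and 294 CPM. The P1 to P7 change was not called, 1.10 ± 0.63 (SE, adjusted p = 0.231), but was 3.04 (adjusted p = 3.56e-04) without P1 libraries 3 and 4, a choice made after seeing the data. The rise to P60, 1.55 ± 0.62 (SE, adjusted p = 0.0376), was lost by total count and when any 1 of 7 of the 10 libraries was left out.

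Compared per length, the summed level of the 4 kinases was 620.0 ± 146 CPM per kb (SD, n = 4) in the 7 d controls and 319.6 ± 34.7 (SD, n = 5) in the 7 d KO libraries, and 534 ± 131 (SD, n = 3) against 262 ± 27.8 (SD, n = 4) at 14 d. It was 214 ± 17.4 (SD, n = 3) at P7 and 193 ± 45.1 (SD, n = 4) at P1. Pdk2 and Pdk4 together made up most of it in every group. The share of Pdk3 was 12.2% ± 3.82 (SD) at P1, 4.47% ± 0.243 at P7, 0.189% ± 0.0364 in the 7 d and 0.26% ± 0.163 in the 14 d P60 controls, 1.97% ± 0.599 at 7 d and 3.68% ± 0.907 at 14 d after knockout. The share of Pdk4 was 18.4% ± 13.5 at P1, 40.3% ± 0.974 at P7, 47.8% ± 10.1 and 36.6% ± 16.6 in the P60 controls, and 62.9% ± 10.9 and 43.6% ± 12.4 in the KO libraries. In Tg libraries Pdk3 made up 2.23% ± 0.232 and Pdk4 54.7% ± 2.29. These shares are descriptions and were not tested.

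**Figure D4:**
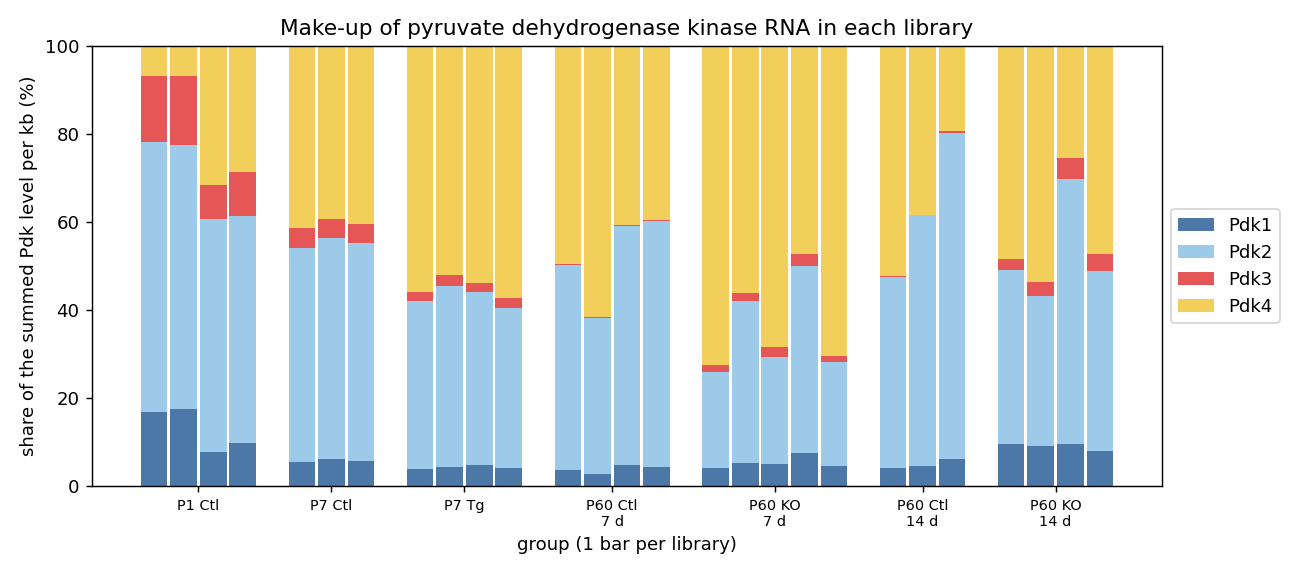
Share in percent of each pyruvate dehydrogenase kinase gene in their summed level per kb, 1 stacked bar per library in 7 groups. Pdk3 averages 12.2% at P1 and 0.189% in the 7 d P60 controls, and Pdk4 differs widely between libraries of 1 group.

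The phosphatases fell with the enzymes. Pdp2 was at 44.5, 39.2, 36.8 and 39.2 CPM in the 7 d controls and 6.60, 8.89, 8.21, 9.58 and 8.95 CPM in the KO libraries, and at 29.5, 28.6 and 31.9 against 7.10, 8.23, 9.48 and 6.64 CPM at 14 d. The changes, -2.25 ± 0.12 (SE, adjusted p = 1.66e-06) and -1.94 ± 0.13 (SE, adjusted p = 2.48e-06), were the lowest log2 values of all 34 members at either time, a fall of 4.75 and 3.83 times. Pdp2 had risen to the P60 level from 8.14, 8.02 and 7.51 CPM at P7, 2.13 ± 0.17 (SE, adjusted p = 3.59e-08), and the KO means were close to that P7 level. It was not called between P1 and P7, -0.0061 ± 0.17 (SE, adjusted p = 0.986), but was without P1 libraries 3 and 4, -0.34.

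Pdp1, the calcium-sensitive phosphatase, changed less. It was at 19.2, 25.7, 29.7, 23.7 and 16.7 CPM against 40.1, 36.2, 32.1 and 29.4 CPM at 7 d, -0.59 ± 0.17 (SE, adjusted p = 0.0122), and at 22.6, 27.6, 32.1 and 24.6 against 32.5, 32.2 and 49.0 CPM at 14 d, -0.52 ± 0.17 (SE, adjusted p = 0.0319). Scaled by total count neither was called (adjusted p = 0.416 and 0.533), and the 14 d call was also lost without KO library 6, 7 or 9 or control library 7, the last leaving -0.29. Pdp1 was the 1 member not called between P7 and P60, 0.24 ± 0.12 (SE, adjusted p = 0.0948), called without 14 d control library 5 or 6 (0.30 and 0.30), and by total count it was lower, -0.36. Its value was 0.29 ± 0.13 (SE, adjusted p = 0.14) between P1 and P7. Pdpr, which tunes the phosphatase, changed by -0.73 ± 0.15 (SE, adjusted p = 0.00224) and -0.66 ± 0.13 (SE, adjusted p = 0.00204), neither of them called by total count, and rose by 1.10 ± 0.14 (SE, adjusted p = 4.07e-06) from P7 to P60 after 0.078 ± 0.14 (SE, adjusted p = 0.739) from P1.

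Bckdk, the kinase of the branched-chain complex, fell less than its substrate. It was at 94.1, 109, 97.2, 101 and 91.4 CPM against 176, 141, 139.9 and 139 CPM at 7 d, -0.60 ± 0.10 (SE, adjusted p = 6.17e-04), and at 119.8, 118, 117 and 124 against 171, 186 and 158 CPM at 14 d, -0.53 ± 0.08 (SE, adjusted p = 5.32e-04). By total count neither was called (adjusted p = 0.135 and 0.124). It rose by 0.73 ± 0.08 (SE, adjusted p = 2.43e-06) from P7 to P60, a call lost by total count (0.12, adjusted p = 0.139), and had -0.11 ± 0.09 (SE, adjusted p = 0.408) from P1 to P7.

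Ratios between 2 members of 1 library do not depend on how libraries are scaled. For 12 pairs the log2 ratio of counts was compared in 5 comparisons by a two-sided exact permutation test, and 13 of the 60 tests had an adjusted p under 0.05. These are ratios of counts, not corrected for gene length. With 4 against 3 libraries the smallest p is 0.0286, which gave 0.0553 after adjustment here, so no ratio of the 14 d, Tg and P1 comparisons passed. That adjusted value depends on how many of the 60 tests reached so small a p.

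At 7 d 4 ratios differed. Pdk3 to Pdk2 averaged -4.22 ± 0.30 (SD, n = 5) against -8.28 ± 0.20 (SD, n = 4), a difference of 4.05, and Pdk1 to Pdk2 -1.18 ± 0.20 (SD, n = 5) against -2.31 ± 0.07 (SD, n = 4), a difference of 1.13. Bckdk to Bckdha averaged 1.19 ± 0.31 (SD, n = 5) against 0.29 ± 0.03 (SD, n = 4), a difference of 0.90, with 0.88, 1.31, 1.56, 1.33 and 0.85 in KO libraries 1 to 5. Mpc1 to Mpc2 averaged -0.08 ± 0.15 (SD, n = 5) against -0.55 ± 0.07 (SD, n = 4), a difference of 0.47. Each of the 4 had an exact permutation p of 0.00794, the smallest this design allows, and an adjusted p of 0.0385, and the KO libraries did not overlap the controls. At 14 d no ratio passed, and 7 were at the smallest p possible with an adjusted p of 0.0553 each. Their differences were 4.36 for Pdk3 to Pdk2, 1.30 for Pdk1 to Pdk2, 0.87 for Bckdk to Bckdha, 0.61 for Mpc1 to Mpc2, -0.51 for Mdh1 to Mdh2, -0.36 for Got1 to Got2 and -0.53 for Idh2 to Idh3a. Of the pairs not called at 7 d, Mdh1 to Mdh2 had a difference of -0.72 (adjusted p = 0.159), with -1.28, -0.28, 0.34, -0.23 and -1.48 in KO libraries 1 to 5, lowest in libraries 1 and 5.

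**Figure D5:**
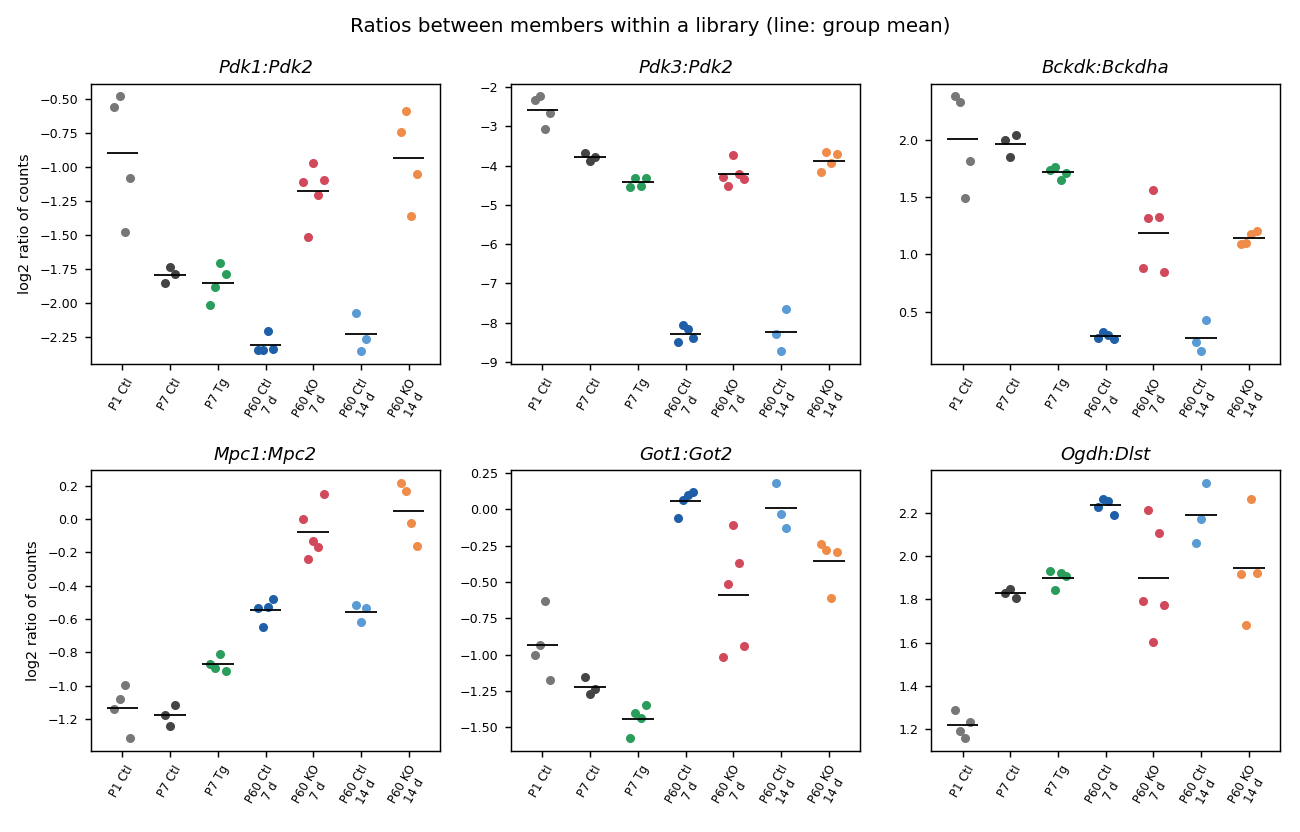
Log2 ratio of counts of 6 pairs of members in each library (points, 7 groups, replicate order from left to right) with the group mean (line). Pdk3 to Pdk2 averages -8.28 in the 7 d P60 controls and -4.22 in their KO libraries, and Bckdk to Bckdha 0.29 and 1.19.

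Between P7 and P60 9 ratios differed, each with an exact permutation p of 0.00833 and an adjusted p of 0.0385. Pdk3 to Pdk2 averaged -8.26 ± 0.34 (SD, n = 7) against -3.77 ± 0.10 (SD, n = 3) and Bckdk to Bckdha 0.28 ± 0.09 (SD, n = 7) against 1.96 ± 0.10 (SD, n = 3), both lower at P60. Pdk1 to Pdk2 and Pdp1 to Pdha1 were lower at P60 too, with differences of -0.48 and -0.85. Got1 to Got2, Mpc1 to Mpc2, Pdk2 to Pdha1, Ogdh to Dlst and Mdh1 to Mdh2 were higher by 1.25, 0.63, 0.40, 0.39 and 0.35. With any 1 library left out, the 13 ratios had adjusted p-values of 0.055 to 0.0745, since fewer libraries raise the smallest p possible. The maturation and KO comparisons share the P60 controls, so their values are only set side by side.

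Whether the KO difference itself changed between 7 d and 14 d was asked with an interaction term. No member was called (background, 0% of 15951 genes in either direction). Over all genes 1662 had an unadjusted p under 0.05, and DESeq2 called 146 genes, none of them a member. The 3 members with the smallest p were Pdhb, with a difference of 0.43 ± 0.18 (SE, adjusted p = 0.413), Mpc1 with 0.28 ± 0.14 (SE, adjusted p = 0.489) and Pdk1 with 0.40 ± 0.20 (SE, adjusted p = 0.489). The median over members was 0.20. Of the other pathway genes, Ppm1k had 0.10 ± 0.35 (SE, adjusted p = 0.943) and Bcat2 -0.39 ± 0.12 (SE, adjusted p = 0.248).

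With MBNL1 raised at P7 the module moved little. There were 19 members lower (background, 15.8% of 15893 genes) and 1, Pdk4, higher (background, 14.9%), with a median log2 fold change of -0.16. Mdh2 was at 888, 804, 842 and 861 CPM in the 4 Tg libraries and 1185, 1070 and 1188 CPM in the 3 controls, -0.43 ± 0.05 (SE, adjusted p = 4.29e-05), the lowest value among enzymes. Got1 was at 215, 226, 215 and 243 against 312, 265 and 295 CPM, -0.37 ± 0.06 (SE, adjusted p = 8.13e-04). Suclg1, Fh1, Suclg2 and Idh2 changed by -0.30 (SE 0.05), -0.28 (SE 0.05), -0.27 (SE 0.05) and -0.25 (SE 0.05), and Idh3a, Idh3g and Cs by -0.24 (SE 0.05), -0.22 (SE 0.05) and -0.20 (SE 0.05). Bckdhb, Dlat and Pdha1 changed by -0.34 (SE 0.09), -0.23 (SE 0.05) and -0.16 (SE 0.04).

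Some Tg calls were lost when 1 library was left out, without a change of sign. Members called lower then ran from 13 to 19. Over all genes 1941 to 2295 were called lower in these fits, of 15690 to 16182 tested. Dld, Got2 and Mdh1, with -0.16, -0.15 and -0.14, each lost the call when any 1 of 5 of the 7 libraries was left out, and Pdha1 and Bckdhb lost it without control library 3. The 11 enzyme and carrier genes not called ran from -0.13 to 0.17. When all 27 libraries shared 1 estimate of spread, 5 members were called lower (background, 2.68% of 17261 genes) and 0 higher (background, 2.96%).

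Among the regulators Pdk3 fell from 28.2, 21.8 and 23.6 to 11.7, 14.4, 11.6 and 13.7 CPM, -0.93 ± 0.10 (SE, adjusted p = 2.17e-05), the lowest value of any member in Tg, and the ranges did not overlap. Pdk4 rose from 339, 278 and 294 to 445, 401, 403 and 480.5 CPM, 0.51 ± 0.08 (SE, adjusted p = 2.77e-04). Pdk1, -0.33 ± 0.06 (SE, adjusted p = 0.00138), and Pdk2, -0.28 ± 0.05 (SE, adjusted p = 0.00171), fell, and Pdp1, -0.23 ± 0.07 (SE, adjusted p = 0.0319), was called but lost the call without any 1 of 6 of the 7 libraries. Pdp2, -0.37 ± 0.15 (SE, adjusted p = 0.0809), Pdpr, -0.12 ± 0.07 (SE, adjusted p = 0.196), and Bckdk, -0.15 ± 0.06 (SE, adjusted p = 0.053), were not called, though Pdp2 was with a sex covariate or without the low-count filter, Pdpr with a sex covariate, and Bckdk with DESeq2, by total count or with a sex covariate. The Pdk4 to Pdk2 ratio was higher by 0.80 in Tg (exact permutation test, adjusted p = 0.0553, at the smallest p possible). Beside these changes all 10 macrophage markers and 6 of 10 fibroblast markers were higher in Tg (background, 14.9%). Of 10 cardiomyocyte markers 5 were lower (background, 15.8%), with summed cardiomyocyte levels of 33950 to 40360 against 38800 to 41740 CPM. Their part was not tested.

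Other genes of the same pathways, taken from lists by function, follow. Of all genes tested, 24.3% were lower and 26.4% higher at 7 d, and 22.4% and 21.8% at 14 d. In Tg 15.8% were lower and 14.9% higher. From P1 to P7 11.2% were lower and 12.3% higher, and from P7 to P60 36.0% and 33.3%. These shares apply to this and the following lists, and a count near them was not read as a result about the list. The 6 other citric acid cycle genes, among them the succinate dehydrogenase subunits, were lower in the libraries labelled KO at 7 d and at 14 d, and all 6 rose from P7 to P60. Ogdhl, a paralogue of Ogdh, had the largest change, -3.17 ± 0.24 (SE, adjusted p = 7.52e-06), -3.08 ± 0.18 (SE, adjusted p = 1.19e-06) and, from P7 to P60, 4.82 ± 0.19 (SE, adjusted p = 5.30e-11). In Tg 2 of the 6 were lower, with Sdha at -0.29 ± 0.04 (SE, adjusted p = 3.09e-04).

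Of 15 further genes of branched-chain amino acid breakdown 13 were lower and 1 higher at each KO time, and 13 rose from P7 to P60, most of all Aldh6a1, 2.54 ± 0.13 (SE, adjusted p = 6.44e-10). Ppm1k, the phosphatase that activates the branched-chain complex, changed by -1.96 ± 0.28 (SE, adjusted p = 2.42e-04) at 7 d, -1.89 ± 0.13 (SE, adjusted p = 2.47e-06) at 14 d, -0.81 ± 0.08 (SE, adjusted p = 1.70e-05) in Tg, -0.87 ± 0.15 (SE, adjusted p = 7.11e-04) from P1 to P7 and 2.41 ± 0.15 (SE, adjusted p = 3.03e-09) from P7 to P60. Bcat2, the mitochondrial aminotransferase, changed by -0.59 ± 0.08 (SE, adjusted p = 2.32e-04), -0.99 ± 0.09 (SE, adjusted p = 1.61e-05), -0.96 ± 0.11 (SE, adjusted p = 2.43e-05) and 1.86 ± 0.11 (SE, adjusted p = 1.56e-09) in the KO and maturation comparisons, and was not called in Tg, -0.052 ± 0.06 (SE, adjusted p = 0.526). The 1 gene higher in KO libraries was Bcat1, the cytosolic form, 1.97 ± 0.27 (SE, adjusted p = 1.92e-04) and 0.74 ± 0.23 (SE, adjusted p = 0.0243). In Tg 5 were lower and 1 higher, Hibch by 0.17 ± 0.05 (SE, adjusted p = 0.0167). Between P1 and P7 8 were lower, most of all Aldh6a1 with -0.9998 ± 0.13 (SE, adjusted p = 9.01e-05), and 1 higher, Hibch by 0.36 ± 0.08 (SE, adjusted p = 0.00744).

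Of 14 genes for cytosolic counterparts and carbon entry 7 were lower and 3 higher at 7 d (background, 24.3% and 26.4%). At 14 d 8 were lower and 3 higher (background, 22.4% and 21.8%). Pcca, of propionyl-CoA carboxylase, fell most, -1.52 ± 0.18 (SE, adjusted p = 9.22e-05) and -1.23 ± 0.12 (SE, adjusted p = 2.54e-05), and Me2, 0.88 ± 0.12 (SE, adjusted p = 2.08e-04), and Pck2, 0.60 ± 0.16 (SE, adjusted p = 0.0114), rose most. From P7 to P60 9 rose, Pcca by 2.05 ± 0.08 (SE, adjusted p = 7.39e-11), and 2 fell, among them Pck2 with -1.17 ± 0.10 (SE, adjusted p = 7.14e-08). Between P1 and P7 3 rose and 3 fell (background, 12.3% and 11.2%), with Me3 at 1.65 ± 0.11 (SE, adjusted p = 1.90e-07) and Acly at -0.41 ± 0.09 (SE, adjusted p = 0.00487). In Tg 2 of 13 tested rose and 3 fell (background, 14.9% and 15.8%), with Pcca at 0.18 ± 0.06 (SE, adjusted p = 0.0296) and Acly at -0.39 ± 0.05 (SE, adjusted p = 5.99e-05).

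Of 6 mitochondrial carriers for cycle intermediates 5 could be tested. At 7 d 3 were lower and 1 higher and at 14 d 4 and 1, with Slc25a11 falling most, -1.59 ± 0.26 (SE, adjusted p = 5.42e-04) and -1.42 ± 0.10 (SE, adjusted p = 4.18e-06), and the citrate carrier Slc25a1 rising, 1.01 ± 0.14 (SE, adjusted p = 2.37e-04) and 0.70 ± 0.17 (SE, adjusted p = 0.00645). From P7 to P60 3 rose and 2 fell, with Slc25a13 at 1.52 ± 0.13 (SE, adjusted p = 1.06e-07) and Slc25a1 at -0.69 ± 0.13 (SE, adjusted p = 2.05e-04). In Tg 2 fell and 1 rose, with Slc25a13 at -0.63 ± 0.08 (SE, adjusted p = 6.04e-05) and Slc25a1 at 0.30 ± 0.08 (SE, adjusted p = 0.0141). The 3 genes that attach lipoate, the cofactor of the dehydrogenase complexes, were all lower at both KO times, led by Lipt2, -0.84 ± 0.12 (SE, adjusted p = 2.97e-04), and Lipt1, -0.68 ± 0.15 (SE, adjusted p = 0.00527). All 3 rose from P7 to P60, led by Lias, 0.70 ± 0.07 (SE, adjusted p = 8.44e-07). None was called in Tg or from P1 to P7.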

How the data were processed

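Ventricle RNA was sequenced in 27 libraries. The authors deposited 1 table of raw read counts per gene, whole numbers with no normalization. Per the submitters' processing notes STAR, featureCounts, Salmon and DESeq2 were used with GRCm38 (mm10), with versions, strand setting and annotation release not given in the sources used here. Identifiers were named with GENCODE M21 gene models, which matched 55227 of 55487, and 260 were left unnamed.

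The 34 members, the lists and the tests were chosen with earlier results of these data known. Fits used edgeR 4.0.16 in R 4.3.3 (filterByExpr, TMM, glmQLFit and glmQLFTest, Benjamini-Hochberg over all genes tested, called at 0.05). The KO and Tg comparisons were each fitted on their own groups. The P7 against P1 and P60 against P7 comparisons were contrasts fitted on the P1, P7 and P60 controls together. They therefore shared the filter and the estimate of spread. All 7 P60 controls entered the P60 against P7 comparison. The interaction was fitted on the 4 P60 groups. Log2 ratios used a pseudocount of 0.5 counts and exact permutation tests, adjusted over 60. A gene with no reads could have had up to 3 counts, at most 0.137 CPM, and total counts of 21929347 to 25675115 leave counting error small beside library spread. Libraries of 1 group differed by chi-square values of 6.34 to 146.6 per degree of freedom over 40 pairs, so none was a duplicate.

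The pipeline was tested on simulated data. Named are all kinases and phosphatases, every other called member, the called gene of each other list with the largest rise and fall, and Ppm1k, Bcat2 and Mbnl1. One gene that this rule also takes is not reported here. Marker lists covered ventricular and atrial cardiomyocytes, fibroblasts, macrophages, endothelial cells, smooth muscle and pericytes, red blood cells, T and B cells, and adipocytes. Alternatives were total count scaling, no low-count filter, DESeq2 1.42.0, 1 fit of all libraries, a replicate block, a sex covariate inferred from Xist and Y-linked genes, another ratio pseudocount and leaving out each library. Leaving out 7 d KO libraries 1 and 5, or P1 libraries 3 and 4, was added after seeing the data. No amino acid sequences were used here.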

Additional observations from a re-analysis of the deposited data

Results flagged for a closer look

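In groups of 4 or 5 libraries, 170 member levels were examined for 1 library far from the rest of its group, and 9 were found. Chance alone gives about 1 in 20, or 8.5 here. Control library 1 at 7 d was high for 3 members, Suclg2 at 183 CPM (others 152 to 156), Bckdha at 146 CPM (others 113 to 116) and Bckdk at 176 CPM (others 139 to 141). P1 library 2 was high for Dld at 219 CPM (others 186 to 192), Suclg2 at 95.6 CPM (others 83.8 to 85.5) and Sucla2 at 189 CPM (others 162 to 165). P1 library 1 was low for Suclg1 at 156 CPM (others 172 to 175). Library 8 of the 14 d KO group was high for Got2 at 730 CPM (others 582 to 597). Library 2 of the 7 d KO group was high for Idh3b at 318 CPM (others 297 to 298).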

How the results depend on the processing

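Of 188 alternative values of the member counts 173 lay within 1.5 times the main count. By total count scaling 2 members were higher at 14 d (48.7% of all genes) and 2 lower at P60 against P7 (65.4% of all genes). In Tg the fit of all 27 libraries called 5 members lower and 0 higher (2.68% and 2.96% of all genes). In Tg 2 were higher without the low-count filter (8.26% of all genes) and with DESeq2 (12.2%). From P1 to P7, 2 members were higher in the fit of all 27 libraries (9.33% of all genes) and with the sex covariate (11.4%). With 1 library left out, members higher ran from 1 to 2 in Tg and from 1 to 5 from P1 to P7. Over all genes, 1776 to 2204 were then higher in Tg, of 15690 to 16182 tested. From P1 to P7 the range was 1434 to 2274, of 16208 to 16694. Of 2102 fold changes under an alternative, 14 changed sign. Total count scaling turned Pdk1 at 14 d to 0.25, and Fh1, Mdh2 and Pdp1 at P60 against P7 to -0.011, -0.034 and -0.36. From P1 to P7, with 1 library left out, Pdk2 ran from -0.0892 to 0.0842, Pdp2 from -0.15 to 0.16 and Pdpr from -0.0133 to 0.23. Without P1 libraries 3 and 4 Pdk2 was 0.17. Of 552 ratio values 10 changed sign, all with 1 library left out and none of them a called ratio. Pdp1 to Pdha1 at 14 d ran from -0.0158 to 0.428, Sucla2 to Suclg2 at 14 d from -0.121 to 0.0385, Pdk4 to Pdk2 at P60 against P7 from -0.22 to 0.24, and Idh2 to Idh3a in Tg from -0.0529 to 0.0214. From P1 to P7 Bckdk to Bckdha ran from -0.211 to 0.0855 and Mpc1 to Mpc2 from -0.10 to 0.00112. Except where a reason is given, the cause was not tested. Counting error is small for members with many reads, though not for those at a few CPM, and the number of libraries limits the precision.

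For same-numbered libraries of 2 groups, the deviations from their group means were correlated. No comparison had every correlation over 0.1 (range -0.47 to 0.23), so the numbers were not taken as pairs. With so few shared numbers this check cannot exclude pairing. With the replicate number as a block, 31 members were lower and 1 higher at 7 d (of all genes 19.3% were lower) and at 14 d (20.6% lower), 15 lower and 1 higher in Tg (11.7% lower), and 6 lower and 3 higher from P1 to P7 (8.35% lower and 10.1% higher). Genes called higher in these block fits were 3704 of 16835 at 7 d, 3135 of 16138 at 14 d and 1852 of 16961 in Tg. The call of Pdk1 at 7 d was lost with the block, -0.42 with an adjusted p of 0.0599. The block turned Pdk1 and Pdk4 at 14 d to 0.048 and 0.13. The block could not be fitted for P60 against P7, where numbers 5 to 7 occur at P60 alone.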
